A study of Mus musculus with 16 samples.

Results

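The Id family has 4 genes, Id1, Id2, Id3 and Id4, which encode small helix-loop-helix proteins that lack the basic stretch with which related factors grip DNA. An Id protein pairs with the E proteins (Tcf3, Tcf4 and Tcf12), the partners that MyoD needs to bind its E-box sites, so that MyoD is left without a partner and myoblasts keep dividing. Id genes are direct targets of BMP signalling through the SMAD factors, and their products are known to be lost when myoblasts leave the cell cycle and differentiate. Chromatin accessibility at these genes was read with ATAC-seq, a method whose transposase inserts adapters into exposed DNA, in C2C12 mouse myoblasts. Members were taken as every deposited peak that overlapped an Id gene or the 50 kb on either side of it. This gave 405 peaks of the 549808 in the libraries used, which merged into 47 of 80290 regions, at 4 of 21755 protein-coding genes.

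All groups used C2C12iMyoD1, a population of C2C12 cells with their endogenous MyoD1 and an integrated Halo-MyoD1 transgene behind the doxycycline-inducible TRE3GS promoter. Proliferating cells stayed in growth medium (GM, 75000 cells seeded per well), and differentiating cells were serum starved for 24 h (DM, 300000 cells seeded), each with 24 h of doxycycline (+dox) or without it (no dox). Medium and seeding density changed together and cannot be told apart. There were 4 libraries per group, labelled as biological replicates. The first replicate of both DM groups was left out, as the study's methods do for quality. That left 14 libraries with 14710 to 58587 peaks each. The peak lists were called in each library separately, so a longer list holds weaker peaks, and results are given for the full lists and for the 14710 strongest peaks of each list by −log10 p. A promoter peak of Myod1 and of Chrna1, the muscle acetylcholine receptor subunit, was present in 14 of 14 libraries, and Myf5 had one in 6 and Vcam1 in 3. Promoter peaks of the markers Ptprc, Cd3e, Cdh5, Epcam, Olig2, Adipoq and Alb were found in 0 libraries, whereas Pecam1 had one in 8, Krt8 in 10 and Sox2 in 5.

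Some of the named regions are shown, picked because they hold letters that MyoD and AP-1 factors are known to read. The summit windows of the Id1, Id3 and Id4 promoters held none of the letters marked here and are not shown. Id3 +42.1 kb, which held the AP-1 letters and no E-box, is not shown either. Each 300-base window is centred on the summit of the merged region, given on the plus strand of mm10, and capitals mark the E-boxes CAGCTG and CAGGTG (either strand) and the AP-1 letters TGANTCA. Id1 +5.3 kb (chr2:152741421-152741720), Id2 −13.3 kb (chr12:25110332-25110631), Id3 −26.3 kb (chr4:136117087-136117386) and Id3 +21.7 kb (chr4:136165019-136165318) lie between genes, and Id4 −33.3 kb (chr13:48227770-48228069) lies in introns of the noncoding genes A330033J07Rik and Gm36346. Distances are from the start site of the Id gene to the summit. Of the Id2 promoter only 30 bases round its single CAGCTG are given, from the RefSeq promoter window on the minus strand of GRCm38.p6 (chr12:25096271-25096300).
Id1 +5.3 kb: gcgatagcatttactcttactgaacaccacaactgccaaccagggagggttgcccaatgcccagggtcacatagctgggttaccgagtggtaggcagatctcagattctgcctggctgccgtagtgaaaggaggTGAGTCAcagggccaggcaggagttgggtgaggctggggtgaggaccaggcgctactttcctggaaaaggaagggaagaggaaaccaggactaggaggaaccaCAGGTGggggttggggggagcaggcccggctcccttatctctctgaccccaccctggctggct
Id2 promoter site: aatttgccacccCAGCTGggctctcgcccg
Id2 −13.3 kb: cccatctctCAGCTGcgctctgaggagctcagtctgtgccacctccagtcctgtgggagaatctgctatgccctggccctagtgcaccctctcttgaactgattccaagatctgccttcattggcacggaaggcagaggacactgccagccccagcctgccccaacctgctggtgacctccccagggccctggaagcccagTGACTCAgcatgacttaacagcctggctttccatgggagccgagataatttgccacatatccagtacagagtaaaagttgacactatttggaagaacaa
Id3 −26.3 kb: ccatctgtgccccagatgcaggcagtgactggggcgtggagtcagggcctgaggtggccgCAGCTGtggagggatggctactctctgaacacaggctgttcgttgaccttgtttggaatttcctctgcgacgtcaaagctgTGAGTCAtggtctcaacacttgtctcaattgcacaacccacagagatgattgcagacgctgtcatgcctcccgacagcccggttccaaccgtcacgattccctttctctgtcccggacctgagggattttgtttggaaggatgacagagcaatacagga
Id3 +21.7 kb: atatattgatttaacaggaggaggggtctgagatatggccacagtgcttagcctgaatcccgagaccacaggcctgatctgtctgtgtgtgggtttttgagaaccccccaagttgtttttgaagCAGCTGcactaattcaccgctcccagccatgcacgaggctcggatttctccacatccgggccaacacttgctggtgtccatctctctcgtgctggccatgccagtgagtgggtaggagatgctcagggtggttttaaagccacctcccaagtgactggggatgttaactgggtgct
Id4 −33.3 kb: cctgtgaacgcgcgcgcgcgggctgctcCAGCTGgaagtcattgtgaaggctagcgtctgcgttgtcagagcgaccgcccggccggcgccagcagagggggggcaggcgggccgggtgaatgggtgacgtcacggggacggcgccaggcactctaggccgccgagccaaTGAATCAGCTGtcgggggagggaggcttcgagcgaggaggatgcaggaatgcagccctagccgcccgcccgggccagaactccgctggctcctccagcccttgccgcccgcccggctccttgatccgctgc

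The core E-box CAGCTG was found in the 300-base summit windows of 21 of the 47 Id regions (44.7%), against 25.5% of all 80290 regions and 16.3% of the 32851 RefSeq promoters. CAGGTG was found in 25.5% of Id windows and 16.5% of all windows. The general E-box CANNTG, which contains both, was in 74.5% of Id windows and 80.3% of all windows. TGANTCA was in 31.9% and 35.6%. GGCGCC, the palindrome of SMAD-bound BMP response elements, was in 13 Id windows (27.7%), against 6.55% of all regions and 11.9% of promoters. Both strands were searched, and in Id4 −33.3 kb the AP-1 letters and the second CAGCTG overlap. RefSeq promoters were found for 3 of the 4 genes, Id2, Id3 and Id4. The Id2 promoter held 1 CAGCTG and 1 GGCGCC, the Id4 promoter 1 GGCGCC, and the Id3 promoter none of these letters. Id3 −26.3 kb, Id2 −13.3 kb and Id4 −33.3 kb each held CAGCTG together with TGANTCA, as did Id1 −30.0 kb, Id1 −9.3 kb and Id1 +46.6 kb. These 6 were 12.8% of Id windows, and 8.64% of all windows held both.

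The 4 loci differed in how many regions they held. Id1 (chr2:152736251-152737410, plus strand) had 16 regions, Id3 (chr4:136143497-136145755, plus strand) 15, Id2 (chr12:25093799-25097140, minus strand) 10 and Id4 (chr13:48261228-48266026, plus strand) 6. Some of these lie in other genes, since the Id1 window reaches H13, Mcts2, Cox4i2 and Bcl2l1, the Id2 window Kidins220 and the Id3 window E2f2. A peak in all 14 full lists was found for 7 Id regions (14.9%), against 13.8% of all regions. In the lists of equal length, 5 Id regions (10.6%) had a peak in all 14 libraries, against 7.56% of all regions, and 21 (44.7%) in at least 1, against 32.6%. Regions seen in a single library made up 8.51% of Id regions and 23.5% of all regions. The 7 regions present throughout were the 4 promoters, Id1 +5.3 kb, Id3 −26.3 kb and Id3 +42.1 kb, which lies in an intron of E2f2.

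**Figure D1:**
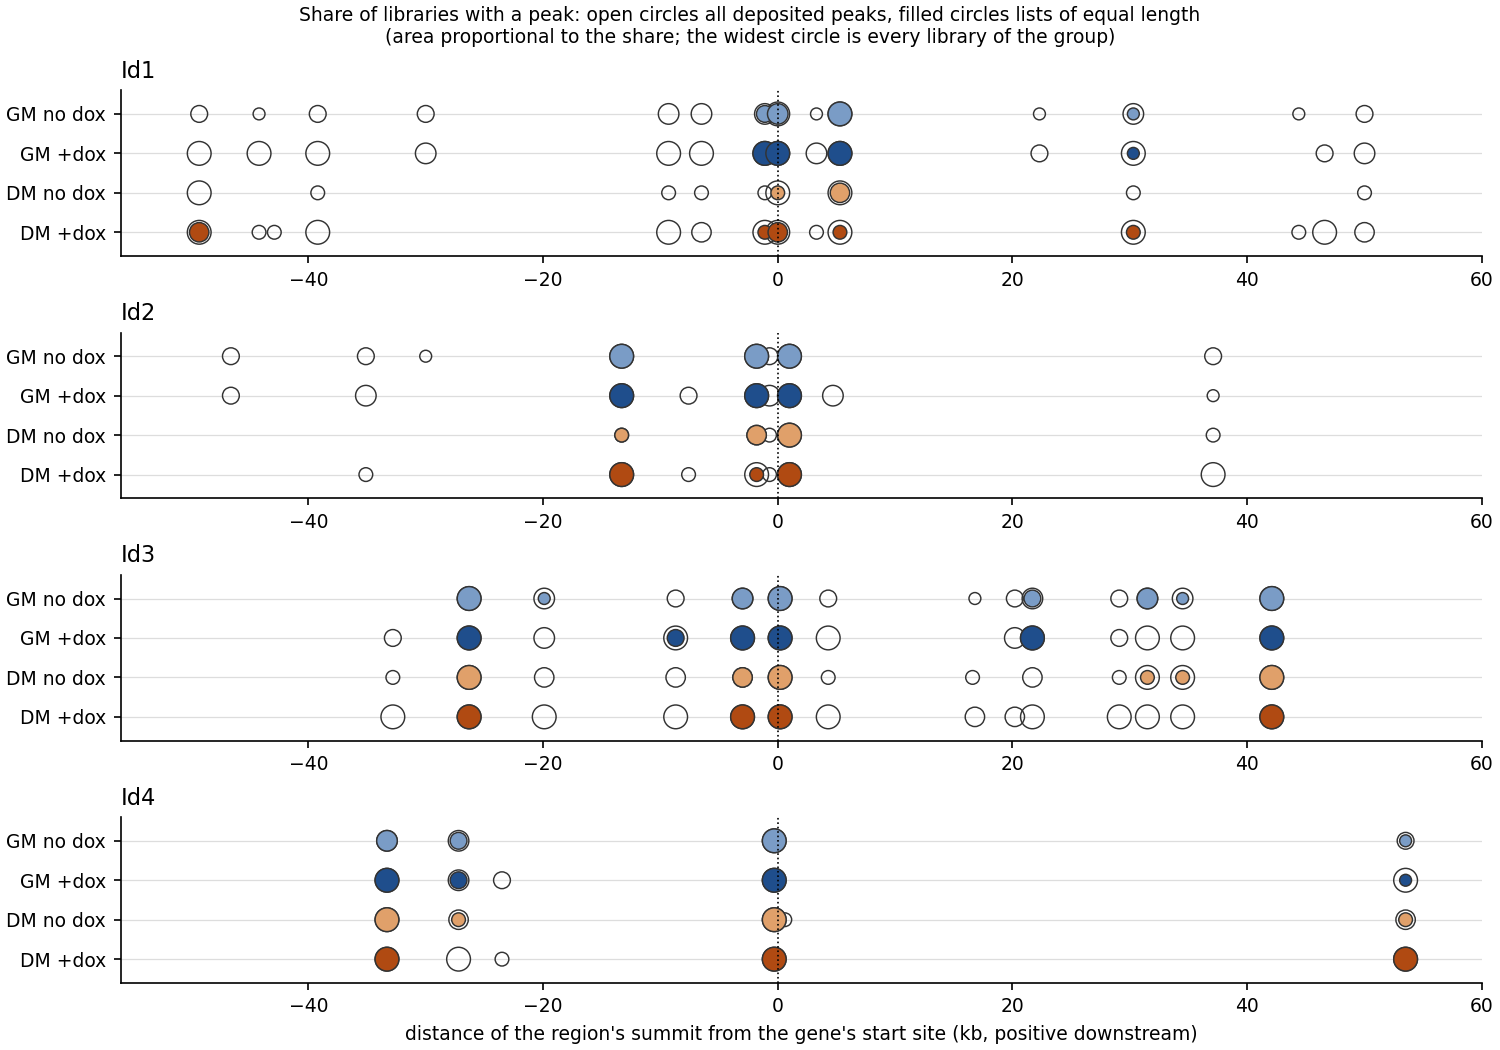
Regions with a peak at each Id locus, by distance of the summit from the gene's start site (kb, x axis) and by group (y axis). Circle area is the share of the group's libraries with a peak, open for the full lists and filled for the lists of equal length; promoters and Id3 −26.3 kb were filled in every group, and Id1 had no region outside the promoter and +5.3 kb filled in DM no dox.

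The Id3 promoter was more enriched in every kept DM library than in any GM library before normalization. In the DM libraries left out it was at 5.21 (replicate 1 without dox) and 9.52 (replicate 1 with dox). For these and the other promoter values before normalization, the share of all regions that separate in this way was not counted. The peak (chr4:136143231-136144070) covers the start site of Id3, with its summit in UTR sequence. Its fold enrichment over the local background, the authors' ratio, was 5.18, 8.74, 6.83 and 6.83 in GM no dox replicates 1 to 4. It was 6.23, 8.75, 6.94 and 6.39 in GM +dox. In DM it was 9.85, 10.2 and 11.7 without dox (replicates 2 to 4) and 14.7, 11.4 and 10.8 with dox. The 6 DM values thus started at 9.85, above the highest of the 8 GM values, 8.75, at summit pileups of 26 to 189 fragments. Group means were 6.90 ± 1.46 (SD, n = 4) in GM no dox, 7.08 ± 1.16 (n = 4) in GM +dox, 10.6 ± 0.964 (n = 3) in DM no dox and 12.3 ± 2.09 (n = 3) in DM +dox.

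The Id2 promoter followed the same order of groups with more overlap. The peak (chr12:25096002-25096498) lies inside the annotated gene body, with its summit in UTR sequence and 93 bp from an annotated start site. Fold enrichment was 4.16, 9.17, 5.76 and 8.56 in GM no dox and 7.24, 8.41, 6.29 and 7.88 in GM +dox. It was 7.49, 8.04 and 10.9 in DM no dox, which overlapped GM no dox, and 15.6, 11.3 and 12.6 in DM +dox, all above the other 3 groups before normalization. Once normalized, the DM groups overlapped, at 3.25 to 3.44 with dox and 3.17 to 3.42 without. Pileups at the summit were 22 to 152 fragments.

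The Id1 promoter did not separate the media by fold enrichment. Its peak (chr2:152735880-152736498) covers the start site, and its fold enrichment was 5.81, 7.64, 8.19 and 10.4 in GM no dox, and 8.95, 11.0, 10.6 and 9.43 in GM +dox. It was 7.66, 5.44 and 8.71 in DM no dox and 11.0, 9.69 and 10.3 in DM +dox. DM +dox was above DM no dox in each library, while GM +dox overlapped GM no dox. By its rank in each full list (1 being the strongest −log10 p), it was at 5785 to 11733 in GM +dox and 12002 to 15394 in DM +dox. These ranks did not overlap, at a log2 rank difference of 0.80 (exact permutation p = 0.0571, adjusted p = 0.418). The share of all regions with ranks apart in this way was not counted. The lists held 36531 to 58587 peaks in GM +dox and 46241 to 51340 in DM +dox, and the part of their length was not tested. Without dox the ranks overlapped, at 5190 to 16217 in GM and 12220 to 19886 in DM (log2 rank higher by 1.01, p = 0.143 by exact permutation, 0.615 once adjusted). The Id4 promoter (chr13:48260664-48261600) had the highest group mean of the 4 by fold enrichment in each group, at 6.24, 16.5, 9.86 and 19.2 in GM no dox and 15.99, 21.1, 17.6 and 18.5 in GM +dox. In DM no dox it was 12.2, 14.8 and 18.1, and in DM +dox it was 25.3, 20.9 and 19.4. The lowest value at 3 of the 4 promoters, Id2, Id3 and Id4, came from GM no dox replicate 1, which also had the shortest list, and values were therefore normalized between libraries before they were tested.

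**Figure D2:**
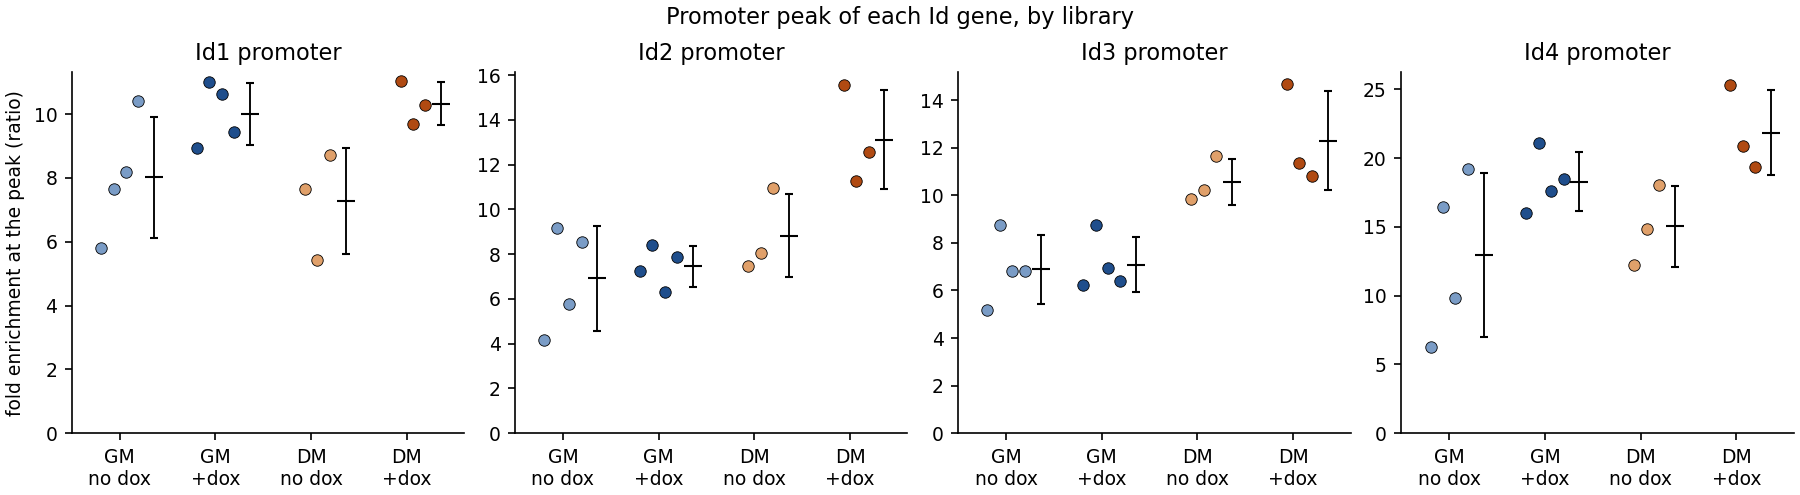
Fold enrichment (ratio, y axis from 0) at the promoter peak of each Id gene in the 14 libraries, by group (x axis, replicates left to right), with mean ± SD beside the points. At Id3 the DM libraries (9.85 to 14.7) sit above the GM libraries (5.18 to 8.75); at Id1 and Id4 the media overlap.

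Whether medium or dox altered these peaks beyond the replicate spread was tested with limma on quantile-normalized log2 fold enrichment, over the 11046 regions with a peak in all 14 libraries. The 7 Id regions tested were chosen by that presence, which favours strong peaks. It also leaves out any region that fell below the peak limit in libraries of a group, and so regions that may differ between groups. Regions that were strong where listed but missed a list, such as Id2 −13.3 kb and Id4 −33.3 kb, were not fitted. In DM against GM without dox, 0 of the 7 passed an adjusted p of 0.05, where 0.0272% of all regions were higher and 0.235% lower. In DM against GM with dox, 0 of the 7 passed, where 0.0% were higher and 0.0453% lower. At an unadjusted p under 0.05 these counts were 3 of 7 without dox (11.0% of all regions) and 2 of 7 with dox (7.46% of all regions). With replicate number as a block, which raised the calls over all regions from 29 to 130 without dox and from 5 to 39 with dox, no Id region passed either. The main fit called only 29 and 5 of 11046 regions, so the lack of Id calls does not show a lack of effect of the medium. The paper's count-based test, which was not run here, found more accessibility changes over 24 h of differentiation without dox than it did for dox.

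By fold enrichment, the Id3 and Id2 promoters had the largest of these differences. For the Id3 promoter, normalized log2 enrichment was 3.58 ± 0.15 (SD, n = 3) in DM no dox and 3.01 ± 0.330 (n = 4) in GM no dox, a limma difference of 0.57 (SE 0.188, unadjusted p = 0.00579, adjusted p = 0.233). With dox it was 3.303 ± 0.058 (n = 3) against 2.66 ± 0.199 (n = 4), a difference of 0.64 (SE 0.188, unadjusted p = 0.00213, adjusted p = 0.28). For the Id2 promoter the limma difference was 0.65 with dox (SE 0.175, unadjusted p = 0.000918, adjusted p = 0.227) and 0.40 without (SE 0.175, adjusted p = 0.38). Ranges of the normalized values did not overlap between media at either promoter in either comparison. That held for 2 of 7 Id regions in the higher direction in each comparison (28.6%), against 3.83% of all regions in the no dox arm and 5.05% in the +dox arm, where 0 of 7 were lower (5.94% of all regions). These comparisons use different libraries in the same fit. On the scale of log2 −log10 p in place of fold enrichment, the Id3 differences were 0.24 and 0.38 and those of Id2 were −0.03 without dox and 0.28 with dox, so the direction at Id2 without dox depends on the measure. On that scale the Id1 promoter had the largest difference of the 4 promoters in both comparisons, lower in DM by −0.71 without dox (unadjusted p = 0.0262, limma adjusted p = 0.267) and by −0.49 with dox (limma adjusted p = 0.524).

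Other Id regions moved less or the other way. At Id3 −26.3 kb, an intergenic region with a peak in all 14 lists of equal length, fold enrichment was 8.17, 20.2, 11.3 and 18.5 in GM no dox and 11.7, 9.47 and 15.04 in DM no dox. After normalization its DM no dox values (3.63 to 3.83) were below those of GM no dox (4.00 to 4.12), a difference of −0.31 (SE 0.120, unadjusted p = 0.016, limma adjusted p = 0.316). It was the 1 Id region of 7 with non-overlapping lower values there, against 4.36% of all regions. With dox its difference between media was 0.01 (SE 0.120). The Id1 promoter differed by −0.20 without dox (SE 0.202) and −0.07 with dox (SE 0.202), the Id4 promoter by 0.19 (SE 0.133) and 0.06 (SE 0.133), Id3 +42.1 kb by −0.20 (SE 0.188) and −0.21 (SE 0.188), and Id1 +5.3 kb by 0.23 (SE 0.178) and −0.11 (SE 0.178). Each of these adjusted p-values was 0.638 or higher.

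**Figure D3:**
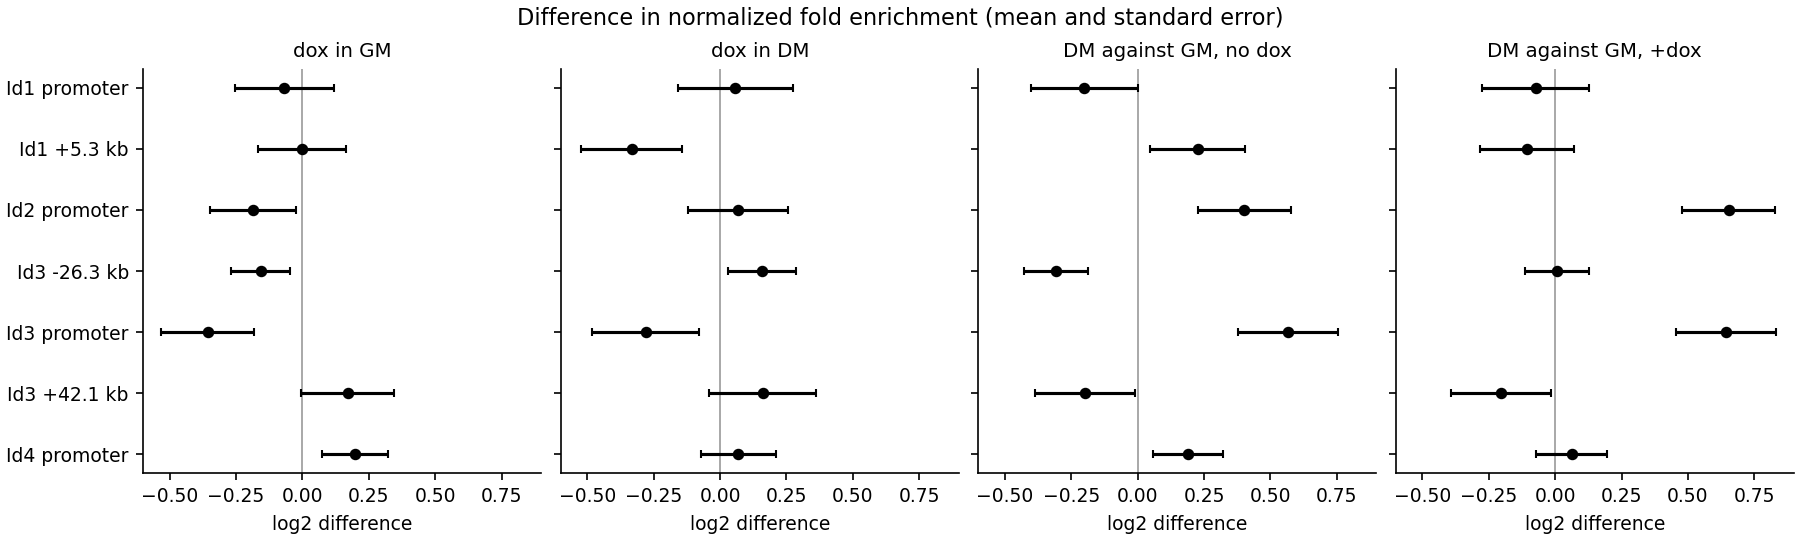
Difference in quantile-normalized log2 fold enrichment (x axis) with its limma standard error for the 7 Id regions with a peak in all 14 libraries, in the 4 comparisons. The Id2 and Id3 promoters lie at 0.40 to 0.65 in both DM against GM panels, and no difference in any panel has an adjusted p under 0.05.

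After 24 h of dox, none of the 7 Id regions in the main fit passed the threshold in either medium, and the other Id regions were not in that fit. The same fit called 0 of 11046 regions for dox in each medium, so the lack of Id calls does not show a lack of effect. The paper reports the induced protein in only part of the nuclei of this population. Its count-based test, which was not run here, found modest accessibility changes with dox in both media. In GM, 0 of 7 passed an adjusted limma p of 0.05 (0.0% of all regions in either direction) and 0 of 7 an unadjusted p of 0.05 (6.1% of all regions). The normalized values of all 7 overlapped there, whereas 1.21% of all regions were non-overlapping and higher and 1.2% lower. The largest difference was at the Id3 promoter, −0.36 (SE 0.175, unadjusted p = 0.0517, adjusted p = 0.8). In DM, 0 of 7 passed (0.0% of all regions in either direction), and 0 of 7 had an unadjusted p under 0.05 (6.71% of all regions). The Id3 promoter there was 3.27 to 3.37 with dox and 3.43 to 3.73 without, a difference of −0.28 (SE 0.202, adjusted p = 0.815). It was the 1 of 7 with non-overlapping lower values (8.08% of all regions), and 0 of 7 were higher (6.25% of all regions). The Id1 promoter differed by 0.06 in DM (SE 0.216) once normalized, although its raw fold enrichment did not overlap, and Id1 +5.3 kb by −0.33 (SE 0.190, adjusted p = 0.784). The Id2 promoter likewise differed by 0.07 in DM (SE 0.187, limma adjusted p = 0.951), although its raw values lay apart. At the Id3 promoter the raw group means were higher with dox in both media, whereas the normalized differences were negative. The difference between the dox effects in DM and GM had an adjusted p of 1.0 for each of the 7 regions.

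Counts of peaks per locus take in all regions, also those not present in every library. In the lists of equal length, Id1 had 2, 2, 3 and 3 peaks in GM no dox, 4, 3, 3 and 3 in GM +dox, 1, 1 and 1 in DM no dox, and 3, 2 and 2 in DM +dox. DM no dox was thus below both GM no dox and DM +dox in every library. Against GM no dox the difference was −1.50 peaks (exact permutation p = 0.0286, the smallest that 3 against 4 libraries allow, adjusted p = 1.0 over 16145 genes), and 1.43% of all genes were non-overlapping and lower. Against DM +dox the difference was 1.33 peaks in favour of dox (exact permutation p = 0.1, the smallest that 3 against 3 allow, adjusted p = 1.0), and 1.82% of genes were non-overlapping and higher. When peaks were ranked by fold enrichment in place of −log10 p, the Id1 difference with dox in DM was −0.333 peaks. In DM no dox the counts came from Id1 +5.3 kb, in 2 of 3 libraries, and the promoter, in 1 of 3. In GM no dox they came from Id1 +5.3 kb in 4 of 4 libraries, the promoter in 3 of 4, Id1 −1.1 kb in 2 of 4 and Id1 +30.3 kb in 1 of 4.

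Id3 had 4, 6, 6 and 6 peaks of equal-length lists in GM no dox, 5, 6, 5 and 6 in GM +dox, 4, 5 and 4 in DM no dox, and 4, 4 and 4 in DM +dox. DM +dox was below GM +dox in every library, by −1.50 peaks (exact permutation p = 0.0286, adjusted p = 0.965 over 15979 genes), and 1.39% of genes were non-overlapping and lower. Over the full lists the same comparison was 1.33 peaks in the other direction, 13.3 ± 0.577 (SD, n = 3) in DM +dox and 12.0 ± 1.41 (n = 4) in GM +dox. Id2 had 3 peaks in each of the 8 GM libraries and 1 to 3 in the DM libraries. Id4 had 1 to 4 in GM no dox, 2 to 4 in GM +dox, 2 or 3 in DM no dox and 3 in each DM +dox library. Ranges of Id2 and Id4 overlapped in all 4 comparisons, as did those of all 4 genes for dox in GM, where 0.224% of genes were non-overlapping and higher and 0.205% lower. No Id gene was non-overlapping and higher in DM than in GM, where 1.47% of genes were so without dox and 1.88% with dox, and none was lower with dox in DM (0.975% of genes). Over all genes, none had an adjusted p under 0.05 in these exact permutation tests. An unadjusted p under 0.05 was reached by 69 genes for dox in GM and 0 for dox in DM. Between media it was reached by 418 genes in the no dox arm and 473 in the +dox arm. For dox in DM neither threshold could be met, since 0.1 is the smallest p that 3 against 3 libraries allow. In the other comparisons the smallest is 0.0286, so an adjusted p under 0.05 would take most genes at that floor.

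The full lists gave larger counts that moved with list length. Id1 had 2, 11, 6 and 13 peaks in GM no dox, in lists of 14710, 39721, 23078 and 49300 peaks, and 14, 11, 12 and 12 in GM +dox. It had 3, 3 and 9 in DM no dox, in lists of 23690, 24181 and 40599 peaks, and 13, 10 and 11 in DM +dox, in lists of 46241 to 51340. Id1 and Id3 did not overlap for dox in DM (exact permutation p = 0.1 and adjusted p = 0.345 for both), at 11.3 ± 1.53 against 5.0 ± 3.46 peaks for Id1 and 13.3 ± 0.577 against 9.0 ± 2.65 for Id3 (n = 3 each). In that comparison 29.0% of all genes were non-overlapping and higher and 0.0% lower. In the other 3 comparisons all 4 Id genes overlapped in the full lists. The share of all genes that did not overlap was there 1.44% higher and 0.0% lower for dox in GM, 0.105% higher and 0.0552% lower between media in the no dox arm, and 2.54% higher and 0.508% lower in the +dox arm. The part of list length in these counts was not tested.

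**Figure D4:**
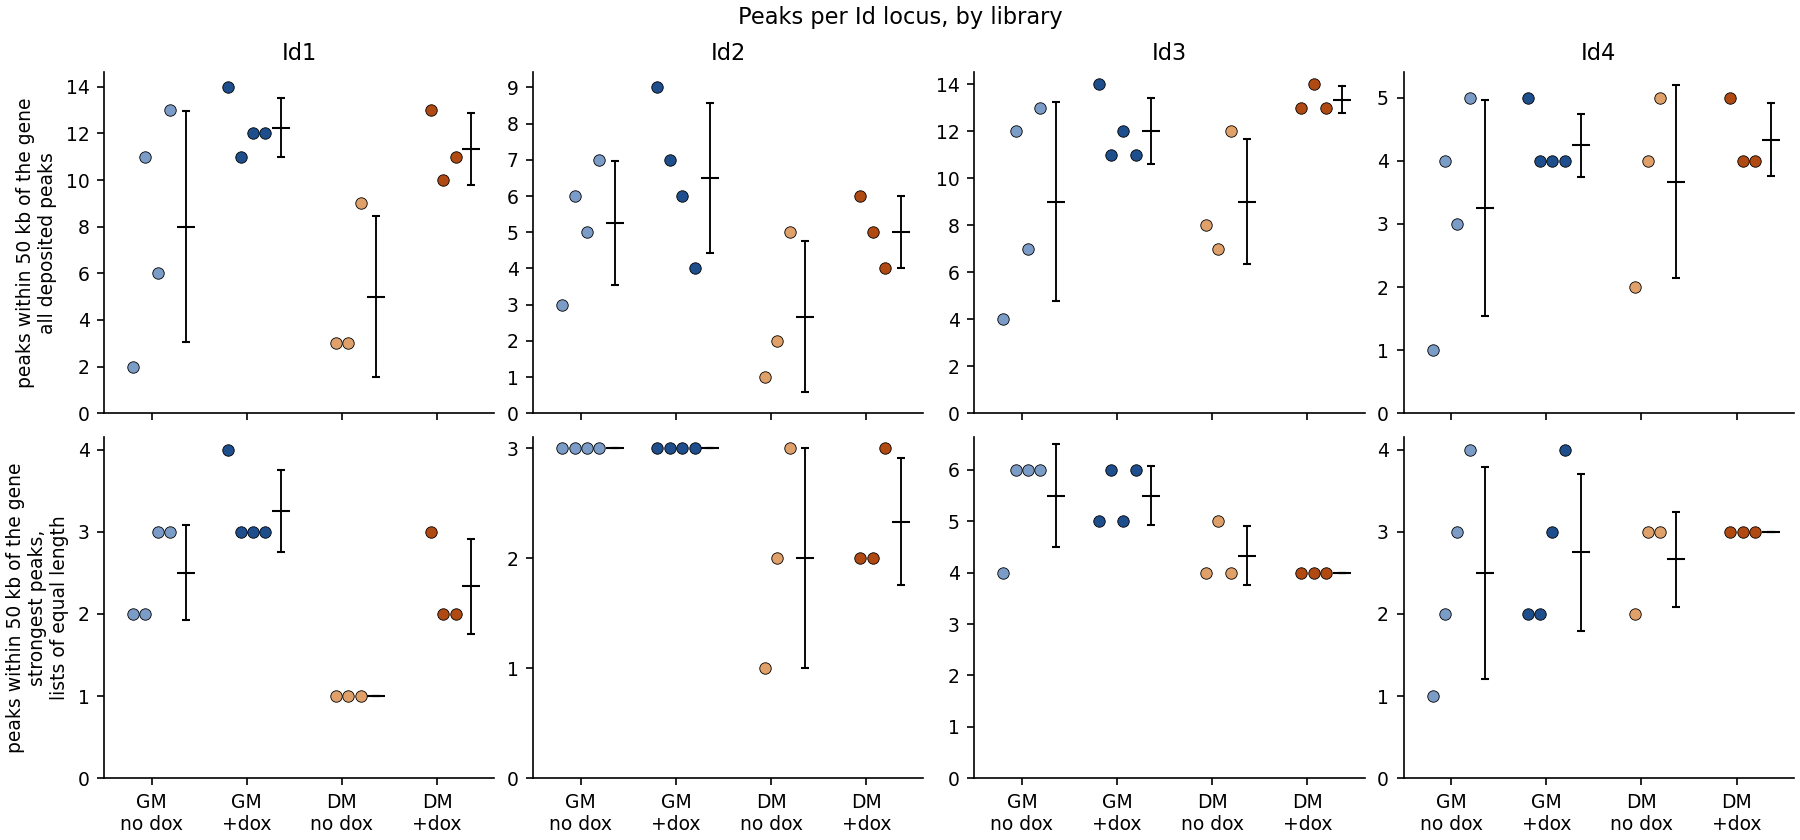
Peaks within 50 kb of each Id gene (y axis from 0) in the 14 libraries by group, in the full lists (top) and in lists of equal length (bottom), with mean ± SD beside the points. In the lists of equal length Id1 had 1 peak in each DM no dox library and 2 to 4 in the others, and Id2 had 3 in every GM library.

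Regions with a peak in every library of one group and in none of the other were rare at these loci. In the lists of equal length there was 1, Id3 +21.7 kb between Id3 and E2f2, with a peak in 4 of 4 GM +dox libraries and 0 of 3 DM +dox libraries, out of 18 Id regions, and 1.11% of regions behaved so in that direction. Its fold enrichment was 13.2, 14.3, 11.4 and 10.9 in GM +dox, at ranks 10198 to 13028. In the full lists the region was still a peak in DM +dox, at 12.4, 10.8 and 9.97 and at ranks 18147 to 19051, so the groups differed in rank and overlapped in fold enrichment. The count of 1 became 4 without DM +dox replicate 3, and 2 without DM +dox replicate 4 or without GM +dox replicate 4. In the full lists there was also 1, Id1 +46.6 kb in an intron of Bcl2l1, with a peak in 3 of 3 DM +dox libraries (7.21 to 10.3) and 0 of 3 DM no dox libraries, where 5.37% of regions were all-or-none and higher. In GM it was listed in 2 of 4 libraries with dox and 0 of 4 without. For the other comparisons the count was 0 of 44 Id regions with a peak for dox in GM (0.446% of all regions higher, 0.0% lower), 0 of 42 for DM against GM without dox (0.205% higher, 0.205% lower) and 0 of 44 with dox (1.49% higher, 0.319% lower) in the full lists. In the lists of equal length these were 0 of 20 (0.163% and 0.124%) and 0 of 19 (0.986% and 1.04%), and 0 of 18 for dox in DM (0.82% and 0.787%). Without DM no dox replicate 4 the last 2 counts became 1 and 2, without DM +dox replicate 3 the last became 1, and without GM no dox replicate 1 the count for dox in GM became 1.

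Id2 −13.3 kb, picked after its values were seen, was missing in part of a single group. It was a peak in all 8 GM libraries (fold enrichment 8.55 to 24.1) and of 3 of 3 DM +dox libraries (21.3, 23.1 and 16.5). In DM no dox it was listed in replicate 4 (17.1) and not in replicates 2 and 3, whose lists hold 23690 and 24181 peaks. A peak in all libraries but these 2 was found at 1 of 47 Id regions (2.13%) and 0.26% of all regions. The pattern was taken from this region itself, so an Id count of at least 1 was fixed in advance. The shares therefore cannot be set against each other. As it was absent from 2 libraries it could not be fitted with the regions above. The same 2 libraries lacked a peak at Id1 −1.1 kb, which was present in 4 of 4 GM +dox and 3 of 3 DM +dox libraries. Ranks within each full list were compared for regions with a peak in every library of both groups, in lists of unequal length whose part in the ranks was not tested. An exact permutation p under 0.05 was reached by 1 of 9 Id regions for dox in GM (3.21% of all regions), 1 of 7 for DM against GM without dox (Id3 −26.3 kb, by 1.03, where 5.68% of all regions did) and 4 of 22 with dox (7.19%). For dox in DM, where 0.1 is the smallest p and the threshold could not be met, it was 0 of 11 (0.0%). No adjusted p was under 0.05, which in the other comparisons would take most regions at the smallest p of 0.0286. Id2 −1.8 kb ranked 3403 to 7386 in GM +dox, 8847 to 11827 in GM no dox and 14682 to 17864 in DM +dox. The log2 rank differed by −0.94 for dox in GM and by 1.61 for DM against GM with dox (exact permutation p = 0.0286 for each, the smallest possible, adjusted p = 0.889 and 0.397), a larger rank being a lower place in the list. In the second comparison Id3 −8.7 kb (1.20), Id3 +21.7 kb (0.72) and Id4 −33.3 kb (0.79) also had lower places in DM, with the same exact permutation p and adjusted p. The remaining member within 1 kb of a start site, Id2 −0.7 kb, had a weak peak in 7 libraries (3.05 to 5.04), and Id4 +0.6 kb in 1 (3.15).

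The partners and regulators of Id proteins were read at their promoters in the same limma fit. Of the E proteins 2 of 3 could be tested, of the myogenic factors 1 of 4, of the BMP receptors and SMADs 2 of 9, of the BMP ligands 1 of 4 and of other MyoD inhibitors 3 of 9. In each list 0 were higher and 0 lower at an adjusted p of 0.05 in the 4 comparisons. Tcf4, which encodes an E protein partner of MyoD, was the closest, at −0.75 for DM against GM without dox (SE 0.21, unadjusted p = 0.00168, adjusted p = 0.138). Tcf3, which encodes the E2A proteins, differed by 0.14 (SE 0.17), Bmp4 by 0.01 (SE 0.16), and Smad4 and Smad6 by −0.04 (SE 0.19) and −0.01 (SE 0.18). The median of all regions was 0.014 in that comparison. Hes1, a Notch-driven repressor, differed by 0.34 (SE 0.18, adjusted p = 0.514). Myog, the myogenic factor that rises on differentiation, had a promoter peak in 0 of 14 libraries, and Bmp2 and Bmp6 likewise.

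Among themselves, the Id promoters were least far apart for Id2 and Id3, with a root mean square difference of 0.243 in normalized log2 enrichment across the 14 libraries, each gene centred on its own mean, and farthest for Id1 and Id3, at 0.446. Over 5813 genes, the promoters nearest to Id3 were those of Ddr1 (0.171), Fstl3 (0.213) and Klf10 (0.216), where the median gene was at 0.421. The nearest to Id2 were Pold4 (0.158) and the promoter region shared by C2 and Zbtb12 (0.166), to Id1 Cnn3 (0.110), Cdkn2c (0.144) and Pink1 (0.15), and to Id4 Hsd17b7 (0.0970), Cox8a (0.0970) and Rusc1 (0.101). These are distances between library profiles, and libraries of one group share their treatment.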

How the data were processed

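The authors processed the reads with nf-core/atacseq against mm10 with a blacklist and called narrow peaks per library with MACS2 at q under 0.05, and the labels also name deepTools. The aligner and the MACS2 version are not given in the sources used here. Each deposited list gives a fold enrichment (a ratio) and the −log10 of p and q per peak. The deposited −log10 p ranked peaks, and no read counts were used, so the study's count-based test was not run.

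Members and gene lists were chosen with earlier results of these data known. Peaks of the 14 kept libraries were merged where they overlapped by at least 1 bp, and genes came from GENCODE M21. Peak ends were compared with GRCm38 and 0 passed a chromosome end. Of 120 library pairs, 0 held identical lists. Peaks per gene and log2 ranks were tested by two-sided exact permutation with Benjamini-Hochberg adjustment over all genes or regions. Fold enrichment was tested with limma 3.58.1 (R 4.3.3, trend, all 14 libraries in 1 fit of 4 group means) after log2 and quantile normalization, with no pseudocount, in Python 3.11.15 otherwise. The 4 comparisons share groups. The steps were run on simulated data. For limma, log2 changes of 1 and 2 were planted between DM and GM, and 89.5% and 98.5% of them were recovered. Changes as small as those at the Id regions were not simulated, so their recovery was not tested. Read depth is not in the lists. Summit pileups were solved from fold enrichment and p, and came out whole to within 0.001 for at least 99.989% of the peaks solved. The background coverage of the kept libraries, solved the same way, was 0.339 to 1.13 fragments per base.

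Named regions were those at a gene or within 1 kb of its start site, up to 5 others per gene with a peak in all kept libraries, all-or-none regions of the lists of equal length and regions past the limma threshold. For each gene the 3 promoters with the nearest profile were named. Other regions, Id2 −13.3 kb, Id2 −1.8 kb, Id1 +46.6 kb, Id3 −8.7 kb and Id4 −33.3 kb, were named after their values were seen. The labels number the replicates and state no pairing. Deviations from group means of same-numbered libraries correlated at r = 0.107 to 0.465 in every pair, across regions. For GM +dox replicate 4 against GM no dox, and DM no dox replicate 2 against GM no dox, a library of another number correlated more highly. The main tests do not use the number, and the replicate block does. The alternatives are described with their effects in the closing section.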

Additional observations from a re-analysis of the deposited data

Results flagged for a closer look

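In 3 counts of peaks per locus, of 30 sets of 4 GM libraries examined with Dixon's test, replicate 1 stood apart from the other replicates, which were equal to each other. The test's nominal chance rate of 0.05 does not hold for such whole numbers with ties, since any 4 counts of which 3 are equal pass it. In the lists of equal length, Id1 had 4 peaks in GM +dox replicate 1 and 3 in each of the other 3. Id3 had 4 peaks in GM no dox replicate 1 and 6 in each of the others. In the full lists, Id4 had 5 peaks in GM +dox replicate 1 and 4 in each of the others. GM no dox replicate 1 had the shortest list (14710 peaks) and GM +dox replicate 1 the longest (58587). The groups of 3 DM libraries were too small to examine.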

How the results depend on the processing

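None of the Id results had an adjusted p under 0.05 in the fits reported above or in any alternative run, so the alternatives bear on direction. For the exact permutation tests this was largely fixed by the number of libraries. Over alternatives other than leaving out 1 library, promoter differences kept their direction in 100 values and turned in 8. Peaks per locus kept it in 106, became 0 in 14 and turned in 19, beside 20 values for Id2 and Id3 with dox in GM, where the difference was 0 to begin with. Adjusted p-values of the Id3 promoter ranged from 0.132 to 0.656 without dox and from 0.119 to 0.911 with dox for DM against GM, and those of the Id2 promoter from 0.332 to 0.961 and from 0.106 to 0.911; the direction held at Id3 in each. Ranking by fold enrichment turned peaks per locus for Id1 with dox in GM (−1.75), with dox in DM (−0.333) and for DM against GM with dox (0.167), and for Id2 in the last (0.0833). All deposited peaks, or those with −log10 q of at least 2, turned Id3 for DM against GM with dox (1.33) and dox in DM (4.33). Id3 for dox in DM was 0.333 with lists of 7355 peaks and with windows of 10 or 100 kb, and 4.25 over all 16 libraries. Those windows gave −0.333 and −1.0 for Id2 and dox in DM. Id4 for DM against GM, with or without dox, was −0.5 over all 16 libraries and within replicate numbers 3 and 4, and −0.333 without dox under the replicate block. Lists of 7355 peaks gave no value for Id1 and dox in DM, which had no peak there. The number of all-or-none Id regions for DM against GM with dox (1 as reported) was 0 with all deposited peaks, −log10 q of at least 2, 10 kb, all 16 libraries or lists of 7355 peaks, and 6 and 2 within numbers 1 and 2 and within 3 and 4. For DM against GM without dox (0 as reported) it was 1 with lists of 7355 peaks, and 4 and 1 within those numbers. For dox in DM it was 1 with all deposited peaks, with −log10 q of at least 2 and ranked by fold enrichment, and 6 within numbers 1 and 2, and for dox in GM it was 1 within 3 and 4. Within numbers 1 and 2 each DM group was replicate 2 alone, with full lists of 23690 peaks without dox and 51340 with dox. The counts there rest on single DM lists and cannot be set beside the reported ones. Promoter differences that turned were, on log2 −log10 p, Id1 for dox in GM (0.104), Id2 for DM against GM without dox (−0.0342) and Id4 for dox in DM (−0.0337). Over all 16 libraries they were Id2 (−0.0608), Id3 (0.0139) and Id4 (−0.173) for dox in DM and Id4 for DM against GM with dox (−0.183), which under the replicate block was −0.0208. Log2 ranks by fold enrichment turned for dox in DM at Id1 (0.29), Id2 (0.15) and Id4 (−0.21), and for DM against GM at Id2 without dox (−0.43) and Id4 with dox (−0.10). The replicate block changed no Id call. Replicate numbers 1 and 2 against 3 and 4 as a term in the limma fit, an alternative chosen after seeing the data, turned no direction at the Id2 and Id3 promoters for DM against GM. The causes were not tested.

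Leaving out 1 library at a time moved the all-or-none count between 1 and 4 for DM against GM with dox, 0 and 1 without dox, 0 and 2 for dox in DM and 0 and 1 for dox in GM. Peaks per locus ranged from −0.167 to 0.833 for Id2 and dox in DM, −0.333 to 0.667 for Id4 and DM against GM without dox, and −0.25 to 0.75 for Id4 and dox in GM. Promoter differences ranged from −0.0349 to 0.148 for Id1 and dox in DM, −0.264 to 0.0426 for Id1 and dox in GM, −0.0038 to 0.128 for Id2 and dox in DM, −0.0364 to 0.134 for Id4 and DM against GM with dox, and −0.0021 to 0.136 for Id4 and dox in DM. Log2 ranks ranged from −0.19 to 0.36 for Id1 and dox in GM, −0.0018 to 0.236 for Id3 and dox in DM, −0.0286 to 0.596 for Id3 and dox in GM, −0.36 to 0.58 for Id4 and DM against GM with dox, and −0.25 to 0.60 for Id4 and dox in DM. The lists hold only peaks past q of 0.05, so an absent peak means that none passed that limit and does not by itself show closed chromatin.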

Other observations

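The 2 libraries left out of the comparisons had shorter lists, 1287 peaks in DM no dox replicate 1 and 14236 in DM +dox replicate 1. In the former the Id3 promoter was the only Id region with a peak, at a fold enrichment of 5.21 and rank 868. In the latter 14 Id regions had a peak, with the Id3 promoter the highest by fold enrichment (9.52, rank 563), followed by Id4 −33.3 kb (8.79, rank 1446) and Id3 −3.0 kb (8.70, rank 1226). The Id2 promoter was at 4.89 and the Id4 promoter at 5.33 there, and the Id1 promoter had no peak.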
